A study of Rattus norvegicus with 6 samples.

Results

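The genes described here encode IgLON adhesion molecules: Lsamp (limbic system-associated membrane protein), Ntm (neurotrimin), Opcml (opioid-binding cell adhesion molecule) and Negr1 (neuronal growth regulator 1). They were taken from the table of estimated counts by gene symbol, and all 4 were found among its 16770 genes. They were selected on the fold change and adjusted p of Lsamp, which was higher in SHR in the comparison of the strains, so that comparison is given for them as a description, with no test. The difference between batches and its dependence on strain did not themselves enter the choice and were tested. For Lsamp these tests are not free of the choice, because they share the spread between libraries with the strain comparison. A choice by a small adjusted p favours a small spread and a small interaction term. Iglon5, the remaining gene of the family, is given beside the 4 members.

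IgLON proteins are small cell surface molecules of the immunoglobulin superfamily, each with a row of immunoglobulin-like domains and a glycosylphosphatidylinositol (GPI) anchor in place of a transmembrane segment. They bind each other in homophilic and heterophilic pairs and are best known from neurons, where they guide neurite growth and synapse formation. Their extracellular part can be released from the surface by metalloproteases, and several family members are also expressed outside the nervous system.

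RNA was sequenced from cells labelled as endothelial and grown from proximal aorta explants of 3-month-old rats of 2 inbred strains, the normotensive Wistar Kyoto (WKY) and the spontaneously hypertensive rat (SHR). No treatment or engineered allele is named for either strain, and all cultures received serum and an endothelial growth supplement. Each strain had 3 libraries, replicates 1 and 2 in batch 1 and replicate 3 in batch 2, with 18462032 to 19947286 estimated counts per library. The labels do not say whether each library came from its own animal or culture or what a batch shared, so the p-values cover only the spread among these libraries, which may be technical.

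The labelled cell type was checked against its markers. Of 11 endothelial marker genes in the table, 7 were below the filter on low counts. The adherens junction gene Cdh5 had 0 to 0.105 CPM (counts scaled to library size) and Pecam1 0.106 to 2.18 CPM, while Eng, which mesenchymal cells also express, had 118 to 634 CPM. Egfl7 had 6.39 to 27.2 CPM in all libraries, and Tek 0.435 to 1.85 CPM in WKY and 4.72 to 9.37 CPM in SHR. Cdh5, Pecam1, Kdr, Tie1 and Vwf were all at or below 2.18 CPM. In such bulk samples fewer cells of a type and less RNA per cell cannot be told apart.

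The stretches before the start sites of Lsamp, Ntm and Iglon5 are shown first, because these genes carried the counts of the family and differed in their pattern across libraries. RefSeq (build GRCr8, which is not the build named for the counts) lists 2 starts for Lsamp, 1 for Ntm, 1 for Negr1 and 2 for Iglon5. Each line gives the 250 bases before a start, 5′ to 3′ on the strand of the gene, the minus strand in every case shown. Capitals mark matches, on either strand, to 3 motifs: the TATA box (TATAAA), the CAAT box (letters CCAAT), and the GC box (letters GGGCGG). The upstream Lsamp start lies after chr11:74222968-74223217, the downstream one after chr11:72702456-72702705, the Ntm start after chr8:36062551-36062800 and the first Iglon5 start after chr1:103035513-103035762.
Lsamp, upstream start: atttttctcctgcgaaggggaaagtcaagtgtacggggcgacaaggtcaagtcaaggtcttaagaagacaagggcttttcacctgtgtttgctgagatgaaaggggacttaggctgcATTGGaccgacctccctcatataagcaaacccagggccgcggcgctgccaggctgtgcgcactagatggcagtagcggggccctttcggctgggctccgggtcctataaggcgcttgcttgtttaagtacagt
Lsamp, downstream start: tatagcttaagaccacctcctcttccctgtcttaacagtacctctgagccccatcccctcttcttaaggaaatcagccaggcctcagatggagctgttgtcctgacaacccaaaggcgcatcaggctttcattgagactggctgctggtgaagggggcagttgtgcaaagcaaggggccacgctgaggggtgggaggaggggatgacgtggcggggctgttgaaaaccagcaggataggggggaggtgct
Ntm: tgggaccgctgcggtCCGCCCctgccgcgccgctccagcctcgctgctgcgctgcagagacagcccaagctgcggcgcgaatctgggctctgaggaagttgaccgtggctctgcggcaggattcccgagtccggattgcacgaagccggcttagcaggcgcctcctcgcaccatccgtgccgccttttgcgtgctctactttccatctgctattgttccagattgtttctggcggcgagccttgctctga
Iglon5, first start: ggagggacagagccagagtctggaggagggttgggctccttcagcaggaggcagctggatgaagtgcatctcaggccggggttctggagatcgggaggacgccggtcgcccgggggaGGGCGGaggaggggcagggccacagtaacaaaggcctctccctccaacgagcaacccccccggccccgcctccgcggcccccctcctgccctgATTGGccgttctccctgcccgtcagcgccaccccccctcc

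None of these 4 windows held TATAAA, which 12.9% of the 33469 windows of this length in the table hold. The upstream Lsamp window held CCAAT once and the downstream one held none of the 3 motifs. CCAAT is found in 34.0% of all windows and GGGCGG in 30.5%. The Ntm window held GGGCGG and the Iglon5 window held both. The Lsamp windows had 54.8% and 56.8% G and C, with 12 and 4 CpG pairs. Those of Ntm and Iglon5 had 64.4% and 70.8% with 24 and 15 pairs, against medians of 51.2% and 5 over all windows. The counts are given per gene and do not tell which Lsamp start was used. Ntm and Opcml are neighbours on the same chromosome in the RefSeq table, with no other protein-coding gene listed between them.

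Lsamp (gene identifier 29561) was present in every library. In WKY it had 9.68 CPM in replicate 1, 12.5 CPM in replicate 2 and 49.0 CPM in replicate 3. In SHR the corresponding levels were 87.7, 62.9 and 347 CPM. The strains did not overlap, with SHR higher, as in 4.51% of genes tested (9.81% in either direction). Within each strain the batch 2 library lay above those of batch 1. The estimated counts behind these levels were 192, 236 and 789 in WKY and 1672, 1235 and 6677 in SHR.

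By strain and batch, the order of Lsamp levels was WKY of batch 1, WKY of batch 2, SHR of batch 1 and SHR of batch 2. The 2 middle levels were the closest: the WKY library of batch 2 and the nearer SHR library of batch 1 differed 1.28-fold. The batch 1 replicates differed 1.29-fold in WKY and 1.39-fold in SHR, so these 2 libraries did not differ beyond the spread between replicates. That pair was picked as the nearest. The WKY library of batch 2 (49.0 CPM) lay below both SHR libraries of batch 1 (87.7 and 62.9 CPM, mean 75.3 CPM). The lowest and highest levels were set apart from their neighbours by more than the spread between replicates.

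**Figure D1:**
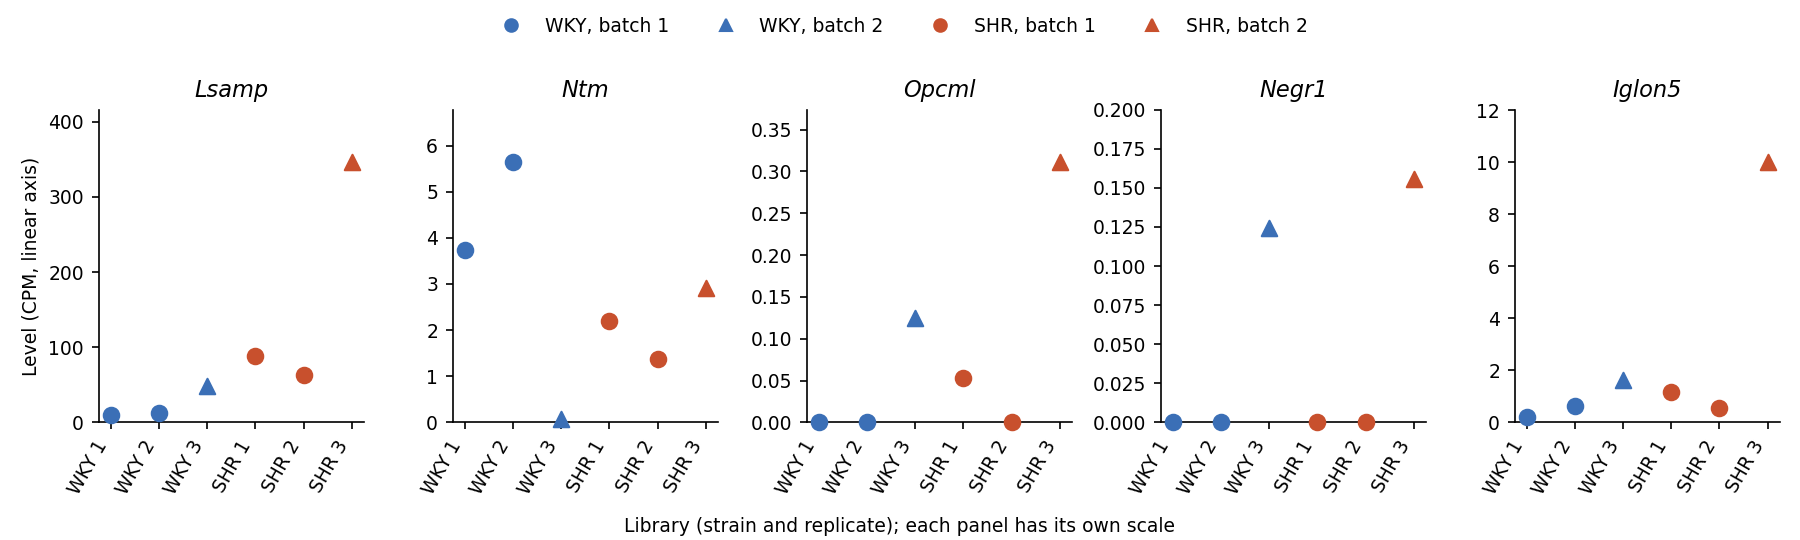
Level of each IgLON gene in CPM (linear vertical axis, its own scale in each panel) in the 6 libraries, with 1 point per library, colour for strain and shape for batch. Lsamp reaches 347 CPM in SHR replicate 3, Ntm drops to 0.0621 CPM in WKY replicate 3, and Opcml and Negr1 stay at or under 0.311 CPM.

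Lsamp averaged 23.7 ± 21.9 CPM over the 3 WKY libraries and 166 ± 157 CPM over the 3 SHR libraries (SD). The large SDs hold the batch difference. With batch as a term, the log2 fold change of SHR over WKY was 2.78 (SE 0.19), or 6.89-fold. The ratio of CPM was 6.80 in batch 1 (2 libraries against 2) and 7.07 in batch 2 (1 against 1). This comparison chose Lsamp, which was 1 of 13 genes called higher in SHR, or 0.103% of the 12614 genes tested. Blocking on the replicate number left 6 genes called for strain in either direction, against 32 (0.254%) without the block.

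Between batches Lsamp rose by 2.17 on the log2 scale (SE 0.19, 95% interval 1.71 to 2.64), or 4.52-fold, with an adjusted p of 0.00144 by edgeR's quasi-likelihood test. The ratio of batch 2 to batch 1 was 4.43 in WKY and 4.61 in SHR, so the rise was seen in both strains. It also passed when any 1 of the 6 libraries was left out, with log2 differences of 2.06 to 2.30. A batch difference was common in these libraries: 43.5% of genes tested were called, 21.0% higher in batch 2 and 22.5% lower.

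Whether the batch difference of Lsamp depended on the strain was asked with an interaction term. The batch difference in SHR exceeded that in WKY by 0.06 on the log2 scale (SE 0.40, 95% interval -0.97 to 1.08; edgeR adjusted p = 0.968). No difference between the strains was detected, and the interval does not show that the strains had the same batch difference. The choice of Lsamp by its strain comparison also favoured a small term. Batch 2 held 1 library of each strain, so the spread in this fit comes from batch 1. By this test edgeR called 0 genes, or 0%, while 1597 had an unadjusted p below 0.05 and DESeq2 called 451.

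Marker lists of other cell types were measured in the same libraries. The summed level of 12 fibroblast markers was 5959 to 16767 CPM in WKY and 14725 to 24128 CPM in SHR. Abundant members of this sum differed in pattern. Col1a1 overlapped between the strains, with 3841 to 10864 CPM in WKY and 4553 to 8773 CPM in SHR. Gsn had 219 to 888 CPM in WKY and 1457 to 11342 CPM in SHR. By edgeR 4 of the 12 fibroblast markers were higher in batch 2 and 1 was higher in SHR, against 21.0% and 0.103% of all genes tested. For strain 8 of the 12 had an unadjusted p below 0.05 and DESeq2 called 8, against 13.3% and 5.51% of all genes tested, and their median log2 fold change was 1.43. The summed level of 10 neural and Schwann cell markers was 10.1 to 26.8 CPM in WKY and 28.9 to 72.2 CPM in SHR. S100b was the most abundant of them in each SHR library (13.4 to 61.0 CPM). Without it the sums were 8.02 to 26.2 CPM in WKY and 11.1 to 15.4 CPM in SHR, which overlap. The overlap came from WKY replicate 3, where Map2 had 24.5 CPM. In batch 1 Map2 had 2.42 and 3.01 CPM in WKY and 4.82 and 5.91 CPM in SHR. Tubb3 had 3.28 and 3.38 CPM there in WKY and 5.24 and 9.01 CPM in SHR. In batch 2 Map2 was lower in SHR (8.57 CPM) and Tubb3 higher (1.30 against 0.124 CPM). Snap25 had 0.683 to 1.06 CPM in WKY and 0 to 0.156 CPM in SHR, and the neuronal markers Rbfox3 and Nefl were at 0 in all 6 libraries. The 8 smooth muscle markers summed to 748 to 902 CPM in batch 1. In batch 2 they summed to 8133 CPM in WKY replicate 3 and to 1858 CPM in SHR replicate 3. Des had 21.8, 19.9 and 3.10 CPM in WKY replicates 1, 2 and 3, and 2.46, 1.68 and 87.6 CPM in SHR. Tagln had 517, 497 and 3039 CPM in WKY and 577, 544 and 480 CPM in SHR. The other smooth muscle markers were higher in batch 2 in both strains. Of the 7 smooth muscle markers tested, 5 were called higher in batch 2, against 21.0% of all genes tested. The 8 mesothelial markers summed to 339 to 678 CPM in batch 1 and 174 CPM in batch 2 of WKY, and to 396 to 550 CPM and 1368 CPM in SHR. The markers did not move together in WKY. Msln had 619 and 305 CPM in batch 1 and 61.2 CPM in batch 2, while Upk1b had 39.9, 28.2 and 90.3 CPM. Upk3b, Krt18 and Lrrn4 were also above batch 1 there, Wt1 was below, and Krt8 lay between. The defining leukocyte markers Ptprc, Adgre1 and Itgam were at 0 in every library. Other members of the leukocyte list were not. Cd68 had 3.48 to 27.98 CPM, lowest in WKY replicate 3 and highest in SHR replicate 3. Csf1r had 0.0621 to 0.581 CPM, and Cd79a was at or below 0.106 CPM. The part of the fibroblast, smooth muscle, mesothelial and neural lists in the levels of the IgLON genes was not tested.

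Ntm (gene identifier 50864), which encodes an IgLON protein able to pair with Lsamp, was measured at low levels and did not follow Lsamp. It had 3.73, 5.65 and 0.0621 CPM in WKY replicates 1, 2 and 3, from 74, 107 and 1 counts. In SHR it had 2.20, 1.37 and 2.91 CPM, from 42, 27 and 56 counts. The libraries of the strains overlapped: in batch 1 both SHR libraries lay below both WKY libraries, and in batch 2 the SHR library lay above the WKY library.

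In batch 1 the mean Ntm level of SHR was 2.62-fold lower than that of WKY, a size above the 1.51-fold and 1.60-fold differences between replicates within WKY and SHR. In batch 2 SHR was 46.8-fold higher (95% counting interval 8.06 to 1882), a ratio that rests on 1 count in WKY. No molecular identifiers are named, so such intervals take in counting error alone. Fitted over both batches, the strain difference of Ntm was -0.04 on the log2 scale (SE 1.47), an average of opposite values that describes neither batch. It was -1.39 (SE 0.44) in batch 1 alone.

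The batch difference of Ntm did not pass the test (log2 difference -1.08, SE 1.48, 95% interval -4.84 to 2.68; edgeR adjusted p = 0.585). It turned on the batch 2 libraries: without WKY replicate 3 it was 0.69 (adjusted p = 0.354) and without SHR replicate 3 it was -6.09 (adjusted p = 0.0113). Within WKY, the batch 2 library was 75.5-fold below the batch 1 mean (95% counting interval 13.3 to 2985). Within SHR, the batch 2 library was 1.63-fold above the batch 1 mean (1.13 to 2.35), about the size of the difference between the SHR replicates of batch 1.

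The interaction term for Ntm was 6.79 on the log2 scale (SE 1.04, 95% interval 4.12 to 9.47). It had an unadjusted p of 0.00124 and missed the threshold over all genes in edgeR (adjusted p = 0.160). DESeq2 called it (6.93, SE 1.86, adjusted p = 0.00859). In edgeR it was called without WKY replicate 1 (adjusted p = 0.0454), and its adjusted p on leaving out another batch 1 library was 0.0554 to 0.496. The dependence of the Ntm batch difference on strain was therefore large in size and was called by some of the fits.

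**Figure D2:**
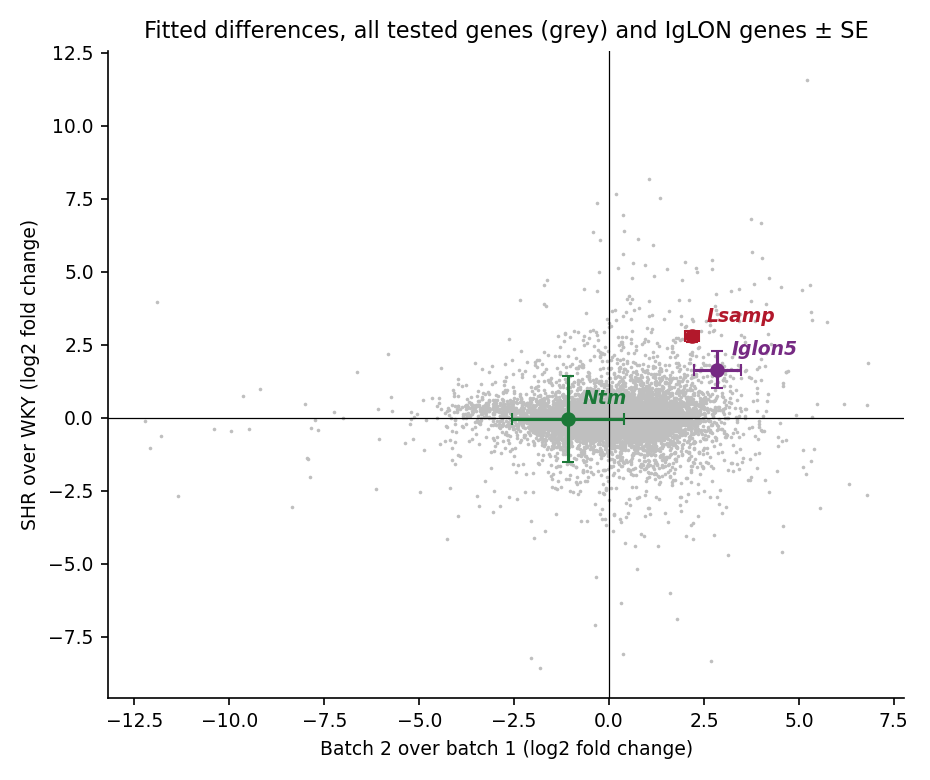
Log2 fold change of batch 2 over batch 1 (horizontal) against that of SHR over WKY (vertical) for the 12614 genes tested (grey) and for Lsamp, Ntm and Iglon5 (bars are ± SE). Lsamp lies at 2.17 and 2.78 with narrow bars, Iglon5 at 2.85 and 1.64, and Ntm near 0 for strain with an SE of 1.47.

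Opcml (gene identifier 116597), known as a gene silenced in ovarian and other tumours, and Negr1 (gene identifier 59318), known from genetic studies of body weight, were barely detected. Opcml had 0, 0 and 2 counts in WKY and 1, 0 and 6 counts in SHR. Negr1 had 0, 0 and 2 counts in WKY and 0, 0 and 3 counts in SHR. In both genes each batch 2 library held more counts than any batch 1 library. Of the genes that passed the filter on low counts 27.2% did so. Opcml and Negr1 did not pass it, so that share is not a like background for their few counts. A count of 0 allows up to 3 counts, which correspond to 0.151 to 0.186 CPM, and Opcml in SHR replicate 3, at 0.311 CPM, was the only value of these genes above that limit. Both were below the filter on low counts, so 2 of the 4 members entered the tests, and no fold is given for either gene.

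Iglon5 (gene identifier 308557), known from a human disease with antibodies to its protein, had 0.202, 0.634 and 1.61 CPM in WKY and 1.15, 0.560 and 10.0 CPM in SHR. These levels came from 4, 12 and 26 counts in WKY and 22, 11 and 193 counts in SHR. The batch 2 library of each strain lay above all batch 1 libraries, as in 27.2% of genes tested. Iglon5 rose by 2.85 on the log2 scale in batch 2 (SE 0.62, 95% interval 1.31 to 4.39; edgeR adjusted p = 0.0153). The call was lost without SHR replicate 1 (adjusted p = 0.0589), SHR replicate 2 (0.0513) or SHR replicate 3 (0.152). Its log2 fold change of SHR over WKY was 1.64 (SE 0.64), with a ratio of 2.05 in batch 1 and 6.21 in batch 2. The libraries of the strains overlapped. Iglon5 differed 3.14-fold between the batch 1 replicates of WKY and 2.06-fold between those of SHR. The batch 1 ratio did not exceed that spread. The batch difference was not shown to differ between the strains (1.60, SE 1.13, 95% interval -1.30 to 4.49; edgeR adjusted p = 0.609).

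The log2 values the authors deposited for the same libraries give another view of the members. In these values the means of the batches are equal in every gene (largest difference 7.5e-09), so they show no batch difference. On this scale Lsamp averaged 9.28 ± 0.14 over the WKY libraries and 11.04 ± 0.19 over the SHR libraries (SD, 3 libraries each). These SDs leave out the batch difference that the strains share. The strain comparison chose Lsamp, so its means are a description. Ntm averaged 5.27 ± 0.55 in WKY and 5.23 ± 0.54 in SHR. For Ntm the log2 values of WKY replicates 3 and 2 were 4.66 and 5.73, where the estimated counts were 1 and 107. Opcml lay between 0.48 and 0.59 and Negr1 between -0.25 and -0.23 in all libraries.

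The genes whose pattern over the 6 libraries was nearest to that of Lsamp were sought among 9985 genes whose mean reached 5 CPM. Likeness was the root mean square difference in log2 CPM after centring each gene on its mean. The nearest was Lum, which encodes the collagen-binding proteoglycan lumican, at a difference of 0.27. It had 16.7, 29.6 and 69.1 CPM in WKY and 171, 85.7 and 599 CPM in SHR. Rarres2 (the adipokine chemerin, 0.39), Gas1 (a GPI-anchored growth arrest protein, 0.45), Olfml1 (an olfactomedin-like protein, 0.46) and Sema6d (a transmembrane semaphorin, 0.48) followed. The median difference over these genes was 1.80. Lum is also in the fibroblast marker list given above.

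Near Ntm the nearest gene was Psd4, an exchange factor for Arf6, at a difference of 0.23. It had 12.4, 24.3 and 0.435 CPM in WKY and 9.38, 4.53 and 8.10 CPM in SHR. The glycosyltransferase gene Mgat3 (0.50), the folate enzyme gene Aldh1l1 (0.54), the melanocortin receptor accessory gene Mrap (0.57) and Serpinb2, which encodes plasminogen activator inhibitor 2 (0.61), came next. The median difference was 1.69. Each of these genes had its lowest level in WKY replicate 3. Aldh1l1, for example, had 2.17 CPM there and 20.2 to 29.5 CPM in the other libraries. These genes were chosen for their likeness, so the shared low library is a description.

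**Figure D3:**
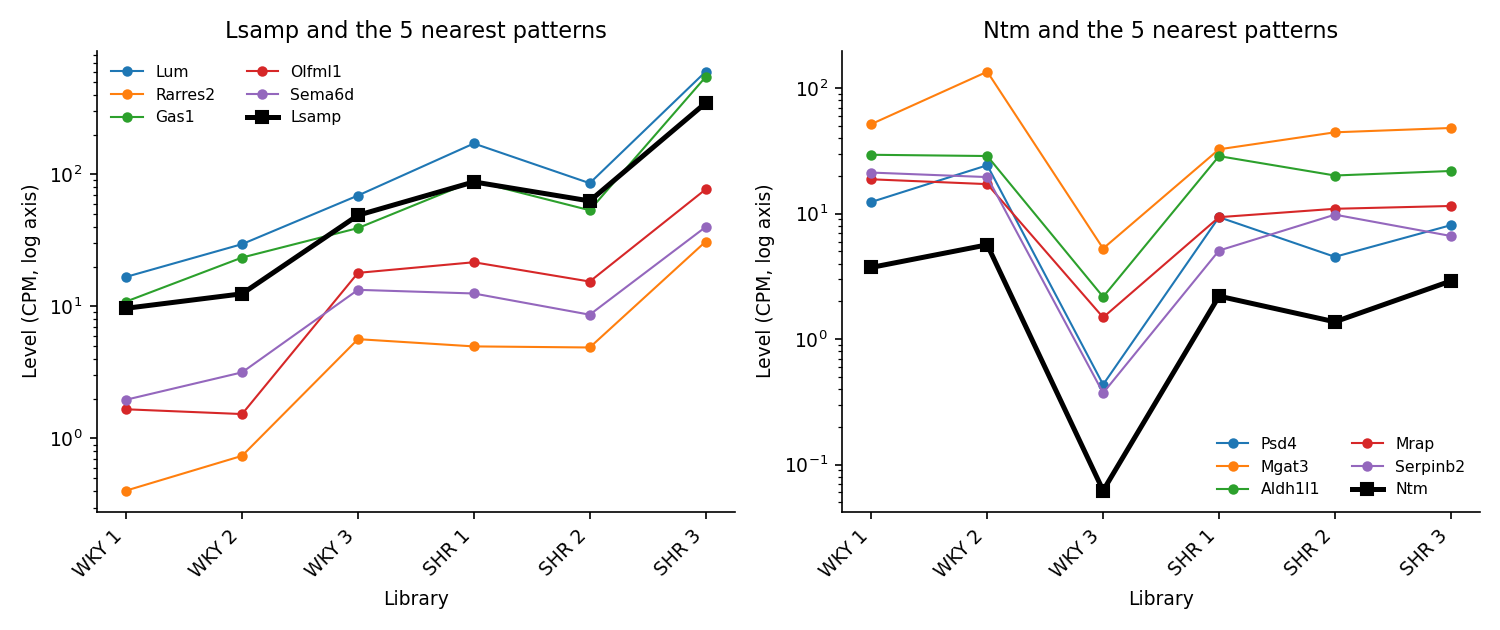
Level in CPM (log axis) in the 6 libraries of Lsamp (left, black) and Ntm (right, black) with the 5 genes nearest in pattern. Lines join the values of 1 gene and stand for no order. The Lsamp set is lowest in the batch 1 WKY libraries and highest in SHR replicate 3, and the Ntm set is lowest in WKY replicate 3.

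Of 17 other adhesion molecules of the immunoglobulin superfamily that were tested, 3 were higher in batch 2, 2 were lower and 12 did not pass. Over all genes tested 21.0% were higher and 22.5% lower, so the called share of this list did not exceed that of all genes, and the median log2 difference was 0.55 against -0.0015 over all genes tested. Mcam, an adhesion molecule of smooth muscle, pericytes and endothelium, rose by 3.26 (SE 0.40, adjusted p = 0.0029). It had 3.12 to 4.08 CPM in batch 1 and 47.8 CPM in batch 2 of WKY, and 0.786 to 1.88 and 8.67 CPM in SHR. Igsf9, a neural adhesion molecule, rose by 2.07 (SE 0.35). Its difference was 1.74 without SHR replicate 3 and was not called (adjusted p = 0.0660).

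Cadm3, a nectin-like molecule of neurons, was higher in every SHR library than in any WKY library, as in 4.51% of genes tested. Its log2 fold change of SHR over WKY was 5.48 (SE 1.03, edgeR adjusted p = 0.166). It had 0.202 to 0.621 CPM in WKY, 3.67 and 4.58 CPM in SHR replicates 1 and 2, and 139 CPM in SHR replicate 3. Its batch difference of 4.03 was 0.87 and not called without that library (adjusted p = 0.388), and it was not called without SHR replicate 1 (0.0941) or SHR replicate 2 (0.103). The junctional molecule Nectin3 fell by 0.66, from 87.1 ± 17.9 CPM (SD, n = 4) in batch 1 to 52.0 and 57.4 CPM in batch 2. That call was lost with the replicate block (adjusted p = 0.0589) and without SHR replicate 1, SHR replicate 3 or WKY replicate 3 (0.0542 to 0.133). Fewer genes of the list were called without SHR replicate 3, as over all genes tested. For strain edgeR called 0 of the 17, 5 had an unadjusted p below 0.05 and DESeq2 called 4. Of all genes tested these shares were 0.254%, 13.3% and 5.51%.

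Assembly of the GPI anchor, which all IgLON proteins carry, involves 28 listed genes, all of them tested. In batch 2, 2 were higher, 9 were lower and 17 did not pass, with a median log2 difference of -0.15. Of all genes tested 43.5% were called, 21.0% higher and 22.5% lower. Pigw, an acyltransferase of anchor assembly, fell by 1.75 (SE 0.20, edgeR adjusted p = 0.00254), from 13.0 ± 1.21 CPM (SD, 4 libraries) to 3.84 and 3.85 CPM. Pigf and Pign, which act in the transfer of ethanolamine phosphate to the anchor, fell by 1.65 and 1.12. Pigt, a subunit of the transamidase that joins the anchor to the protein, rose by 1.72, from 221 ± 32.6 CPM to 667 and 778 CPM. The libraries of the batches did not overlap in these 4 genes, as in 57.6% of genes tested. Leaving out SHR replicate 3 lowered the number of calls in this list, as over all genes tested. For strain edgeR called 0 of 28, 1 had an unadjusted p below 0.05 and DESeq2 called 0. Of all genes tested these shares were 0.254%, 13.3% and 5.51%.

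Of 9 proteases and lipases able to release surface or GPI-anchored proteins, 3 were higher in batch 2, 0 were lower and 6 did not pass, with a median of -0.05, where 21.0% of all genes tested were higher. Fewer were called without SHR replicate 3, as over all genes tested. The membrane protease gene Bace1 rose by 1.11 (SE 0.16), from 22.3 ± 1.97 CPM (SD, n = 4) to 40.8 and 56.7 CPM. The metalloprotease gene Adam9 rose by 0.97. Its difference was 0.92 without SHR replicate 3 and was not called (adjusted p = 0.0553). Mmp14, a membrane-bound matrix metalloprotease, rose by 0.64. Its call was lost with the replicate block (0.0912) and without SHR replicate 1, 2 or 3 or WKY replicate 1 or 2 (0.0685 to 0.164). For strain edgeR called 0 of the 9, 1 had an unadjusted p below 0.05 and DESeq2 called 1. Of all genes tested these shares were 0.254%, 13.3% and 5.51%.

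Receptor tyrosine kinases reported to bind IgLON proteins formed a list of 7, of which 6 were tested. In batch 2 the fibroblast growth factor receptor genes Fgfr1 and Fgfr3 were higher, 0 genes were lower and 4 did not pass, with a median of 0.47, where 43.5% of all genes tested were called. Leaving out SHR replicate 3 or WKY replicate 3 lowered the number of calls in this list, as over all genes tested. Fgfr3 rose by 1.72 (SE 0.35), from 3.20 ± 0.91 CPM (SD, n = 4) to 8.36 and 13.1 CPM, and was not called without WKY replicate 3 (adjusted p = 0.103). Fgfr1 rose by 0.65, a call lost with the replicate block (0.0786) and without any 1 library other than WKY replicate 2 (0.0684 to 0.148). For strain edgeR called 0 of the 6, 1 had an unadjusted p below 0.05 and DESeq2 called 0. Of all genes tested these shares were 0.254%, 13.3% and 5.51%.

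**Figure D4:**
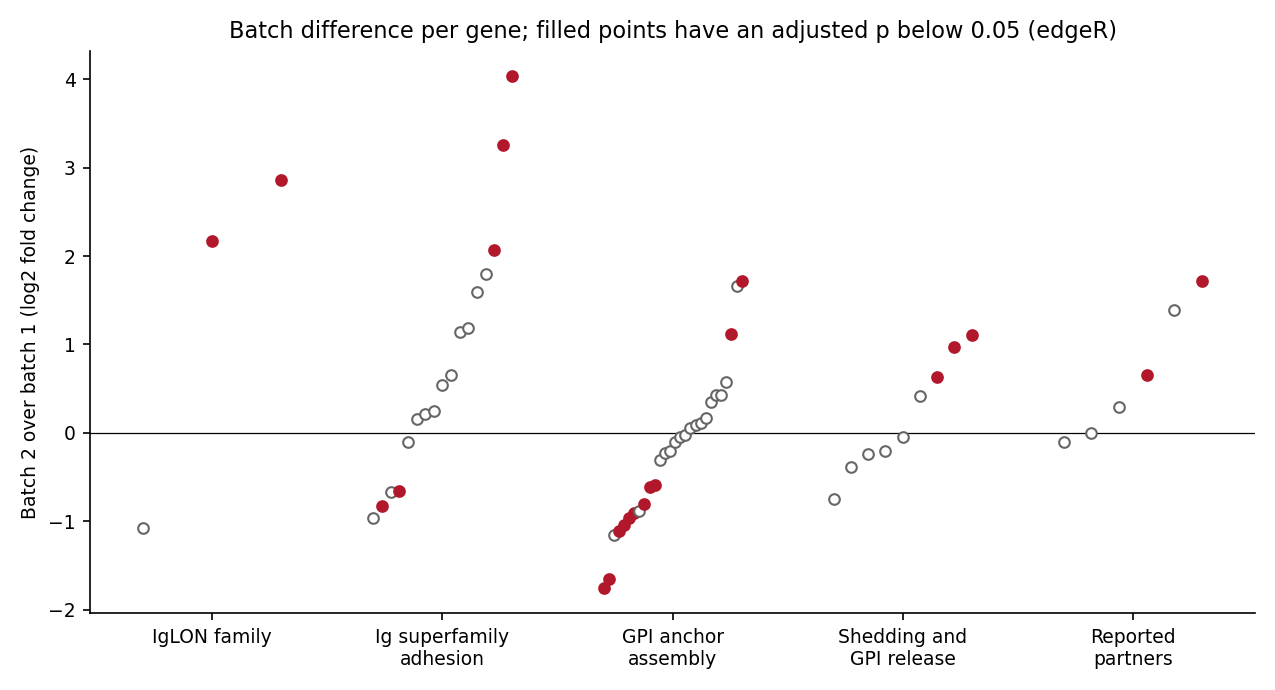
Log2 fold change of batch 2 over batch 1 for each tested gene of the IgLON family and of the 4 related lists, where 1 point is 1 gene and filled points have an adjusted p below 0.05 by edgeR. In the GPI anchor list 9 filled points lie below 0 and 2 above, while Lsamp and Iglon5 lie at 2.17 and 2.85.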

How the data were processed

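RNA was measured in 6 libraries by paired-end sequencing with 100-base reads, per the labels' protocols. The authors deposited estimated counts per gene, not normalized, and a table of log2 values. How the latter was made and the strand setting are not given in the sources used here. RSEM 1.2.28, Bowtie2 2.4.4, DESeq2 1.42.1 and the build Rnor_6.0 are listed without roles, per the submitters' processing notes. Values that were not whole (tolerance 0.001) made up 8.96%.

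Counts were rounded, filtered by filterByExpr by strain (12614 genes) and scaled by TMM (factors 0.87 to 1.07). Strain and batch were terms of 1 fit with edgeR 4.0.16 in R 4.3.3 (glmQLFit, glmQLFTest), with 3 residual degrees of freedom, or 2 with their interaction. All tests were two-sided and adjusted by Benjamini-Hochberg over all genes tested. Genes were called at an adjusted p below 0.05. Log2 CPM used a prior count of 2. DESeq2 1.42.0 was an alternative. The code was tested on simulated data.

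The members and lists were chosen with earlier results of these data known. The rule for naming took the family, up to 4 called genes of each list by the smallest adjusted p for batch, and the 5 genes nearest to each tested member. Of 77 genes in the family and pathway lists 72 were found by symbol, and 55 of 58 marker genes. The labels number the replicates alike in both strains, and number 3 marks batch 2. Deviations from the strain means correlated between same-numbered libraries at 0.30, 0.40 and 0.66 across genes, but at 0.48 and 0.49 between replicates 1 and 2 of opposite strains.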

Additional observations from a re-analysis of the deposited data

Results flagged for a closer look

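The batch 2 library of Ntm lay below both batch 1 libraries in WKY and above both in SHR, which is why it is given here. In SHR the batch ratio of 1.63 was about the 1.60-fold difference between the batch 1 replicates, so a move in SHR is not shown. The batch difference in SHR minus that in WKY was 6.79 on the log2 scale. The difference was tested and was not called by edgeR (adjusted p = 0.160), while DESeq2 called it (adjusted p = 0.00859). In WKY it rests on 1 library with 1 count.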

How the results depend on the processing

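Among the alternatives run, the batch difference of Lsamp was called in all but 1: without a strain term it was 2.20 and missed the threshold (adjusted p = 0.153), since the strain difference then counts as spread. Its strain difference lay between 2.66 and 2.91 in all 12 alternatives. For its interaction term, leaving out 1 batch 1 library gave -0.17 to 0.35, and no alternative called it. On leaving out 1 library the batch difference of Ntm lay between -6.09 and 0.69 and its interaction term between 6.45 and 7.21, and DESeq2 gave 6.93 for the latter. Genes called for strain were 32 with all libraries, 695 with DESeq2, 2 without the batch term, 6 with the replicate block, and 0 to 65 on leaving out 1 library. Genes called for the interaction were 0 with all libraries, 451 with DESeq2, 4 without a filter, and 0 to 248 on leaving out 1 batch 1 library. The cause of these shifts was not tested. Leaving out a batch 2 library leaves no interaction fit. With the replicate block the batch difference of Lsamp was 2.18 (adjusted p = 0.00722) and that of Iglon5 2.84 (0.0348); beside Nectin3, Mmp14 and Fgfr1 the block changed no call among the named genes. RLE scaling, added for the nearest genes after the data were seen, kept the same 5 genes for Lsamp and for Ntm. The summed neural and Schwann marker level was 31.8 CPM higher in the mean of SHR than of WKY. The difference was -1.55 CPM without S100b, an alternative chosen after the data were seen. Map2 had 24.5 CPM in WKY replicate 3, which enters that value. Depth limits Opcml and Negr1, whose counts were near the level that 0 allows.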
